A study of Mus musculus with 2 samples.

Results

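Chromatin accessibility was examined at the constant genes of the mouse immunoglobulin light chains, which are Igkc of the kappa locus on chromosome 6 and Iglc1, Iglc2 and Iglc3 of the lambda locus on chromosome 16. These 4 genes were chosen by name, with the gene body and 50 kb on either side. Of the 4, 3 are among the 37252 genes of the annotation, and Iglc1 was placed by its sequence. The windows so defined held 41 of the 47542 DNase I hypersensitive sites (DHS) in the peak list, 17 around the kappa gene and 24 around the lambda genes. The cells were splenic B cells of 8 weeks old C57/Bl6 animals with the genotype Trp53+/+, mock treated, that had been captured with magnetic beads against B220, a surface marker of the B lineage. Their nuclei were digested with DNase I, which cuts open chromatin more readily than DNA wrapped in nucleosomes. The series consisted of 1 DNaseI library and 1 input library without replicates, and only the peaks of the former were analysed. The capture keeps B cells of every stage that carry B220, and the number of animals behind the library was not given in the sources used here.

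A light chain gene is put together in the developing B cell by recombination of a V segment with a J segment, which are then spliced to a constant (C) exon. The recombination signals beside the segments consist of a heptamer and a nonamer around a spacer of either of 2 lengths, and the Rag1 and Rag2 proteins cut next to them. Kappa transcription depends on an enhancer in the intron between the J segments and Igkc and on others downstream of Igkc, and lambda transcription on enhancers downstream of each pair of lambda constant genes. Most mouse B cells carry a kappa light chain and a minority a lambda light chain, and the kappa-B word was first described in the kappa intron enhancer.

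The following stretches of the mm9 reference sequence, written 5′ to 3′, lay inside DHS of the windows and are shown because they hold the words discussed below. Capitals mark the kappa-B word GGACTTTCC, the E box word CAGGTG or its reverse complement, and the Ets-IRF composite word GGAANNGAA, to which PU.1 binds together with an interferon regulatory factor. The first lies at chr6:70675730-70675842 between Igkj5 and Igkc, the second at chr6:70685681-70685851 in the DHS downstream of Igkc. The last pair, on the minus strand at chr16:19027319-19027410 and chr16:19179443-19179534, lies downstream of Iglc1 and of the pseudogene Iglc4.
Kappa intron: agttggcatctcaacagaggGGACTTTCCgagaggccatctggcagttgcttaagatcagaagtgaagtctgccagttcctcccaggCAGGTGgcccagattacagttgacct
Kappa downstream: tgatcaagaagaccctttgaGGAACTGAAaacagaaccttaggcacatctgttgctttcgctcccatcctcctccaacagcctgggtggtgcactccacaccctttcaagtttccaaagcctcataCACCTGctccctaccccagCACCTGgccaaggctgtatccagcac
Lambda downstream of Iglc1: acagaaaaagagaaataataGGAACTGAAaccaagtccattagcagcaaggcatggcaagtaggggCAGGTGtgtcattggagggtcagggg
Lambda downstream of Iglc4: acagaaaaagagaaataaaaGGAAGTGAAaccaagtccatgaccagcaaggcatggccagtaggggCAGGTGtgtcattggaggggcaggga
The last 2 stretches of 92 bases were identical at 85 positions (92.39%). Both carried the Ets-IRF composite word and the E box at the same places.

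All 4 constant genes lay wholly inside a DHS, whereas 40.1% of all annotated genes had a DHS over any base of the body. The scores given below are the authors' own value per peak, on a scale that is not stated and that ran from 5.05 to 619.4 over the list with a median of 32.65. Igkc (ENSMUSG00000076609.1, chr6:70676429-70676751, plus strand), the only kappa constant gene, lay in a DHS of 1972 bp at chr6:70675630-70677601 with a score of 89.08. This score was above 81.39% of all DHS on chromosomes 1 to 19 and X. Iglc2 (ENSMUSG00000076937.2, chr16:19198494-19200444, minus strand) lay in a DHS of 2397 bp at chr16:19198382-19200778 with a score of 122.8, at percentile 89.19. Iglc3 (ENSMUSG00000076931.2, chr16:19065327-19067266, minus strand) lay in a DHS of 3531 bp at chr16:19064164-19067694, the widest of the 41, with a score of 118.1, at percentile 88.4. The gene models of Iglc2 and Iglc3 include an exon upstream of the constant exon, while that of Igkc is the constant exon alone.

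Iglc1 had the lowest score of the 4 members. It is not named in the annotation and was placed by its sequence match to the constant exon of Iglc3, of 75.63% identity over 316 aligned bases, at chr16:19061851-19062162 on the minus strand. Its DHS of 1541 bp at chr16:19061551-19063091 had a score of 25.21, at percentile 39.9 and thus below the median of the list. It lay 0.199 kb from a DHS with a score of 92.55, itself 0.347 kb from the DHS of Iglc3, so peaks merged across 500 bp would make these 3 a single DHS shared by Iglc1 and Iglc3. At the median score or above, 3 of the 4 bodies were therefore covered. The pseudogene Iglc4, the other constant copy of the locus, matched the Iglc3 exon at 74.56% over 283 bases (chr16:19195098-19195375) and lay in no DHS. With 1 library and no replicates, none of these differences in score could be tested.

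The window of Igkc held 17 DHS and that of Iglc2 held 16, against a median of 3 over all annotated genes, and 68.1% of those genes had at least 1. More DHS than at most genes were also found around Iglc1 and Iglc3, whose windows overlap and held the same 8. Of all annotated genes, 96.7% had fewer DHS than Igkc, 95.76% had fewer than Iglc2 and 75.27% had fewer than Iglc1 and Iglc3. The upper quartile over all genes was 7 and the 90th percentile was 12.

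**Figure D1:**
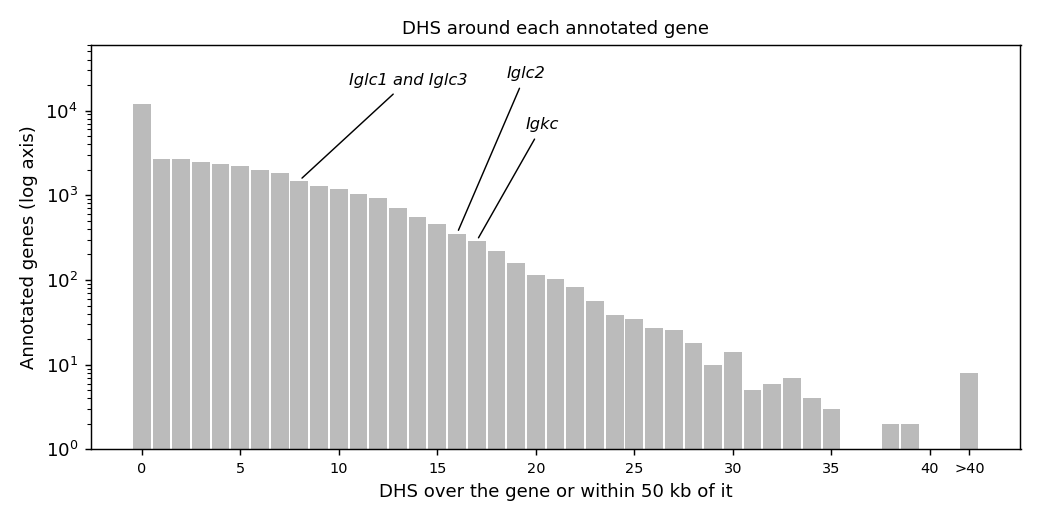
Number of annotated genes (vertical, log axis) against the number of DHS over the gene or within 50 kb of it (horizontal); the last bar pools genes with more than 40. Igkc with 17 and Iglc2 with 16 DHS sit in the right tail, while Iglc1 and Iglc3 with 8 sit just above the upper quartile of 7.

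To compare kappa with lambda, DHS were counted per length of window. The kappa window (chr6:70626429-70726751) had 16.95 DHS per 100 kb (95% exact Poisson interval 9.871 to 27.13). The lambda genes gave 2 windows, chr16:19011851-19117266 around Iglc1 and Iglc3 and chr16:19148494-19250444 around Iglc2, with 11.57 DHS per 100 kb together (7.415 to 17.22). The ratio of kappa to lambda was 1.464, and its interval of 0.7383 to 2.842 includes 1, so a difference in density was not detectable with these counts. Such intervals cover counting error only, not the spread between animals or libraries. DHS covered 19.22% of the kappa window and 12.06% of the lambda windows.

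Both loci were denser in DHS than the genome at large, where chromosomes 1 to 19 and X had 1.799 per 100 kb. The kappa window was 9.42 times (5.487 to 15.08) and the lambda windows were 6.434 times (4.122 to 9.573) that value. Within lambda the 2 windows had 7.589 (3.276 to 14.95) and 15.69 (8.97 to 25.49) DHS per 100 kb, a ratio of 2.068 for Iglc2 over Iglc1 and Iglc3 whose interval of 0.835 to 5.581 includes 1.

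The constant genes of the other antigen receptors served as the loci most like these. Around the annotated heavy chain constant genes Ighm, Ighg1 and Ighg2c there were 12.22 DHS per 100 kb (8.181 to 17.54), and kappa was 1.387 times (0.7151 to 2.61) and lambda 0.9475 times (0.528 to 1.685) that density. Around the T cell receptor constant genes Trac, Trbc1 and Trbc2, which B cells do not rearrange, there were 4.705 (2.256 to 8.653). Kappa had 3.602 times (1.557 to 8.801) and lambda 2.46 times (1.134 to 5.764) this density, and neither interval includes 1. The contrast rested on Trbc1 and Trbc2, whose windows shared a single DHS. Trac alone had 9 DHS, or 8.774 per 100 kb (4.012 to 16.66), and against it neither kappa, with a ratio of 1.931 (0.8143 to 4.917), nor lambda, with 1.319 (0.5919 to 3.225), was distinguishable. At the median score or above, the heavy chain windows kept 7 of 29 DHS, the kappa window 10 of 17, the lambda windows 15 of 24 and the T cell receptor windows 8 of 10. The median score was 20.45 in the heavy chain windows, 41.31 in kappa, 52.34 in lambda and 102 in the T cell receptor windows, where the highest was 306.4.

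**Figure D2:**
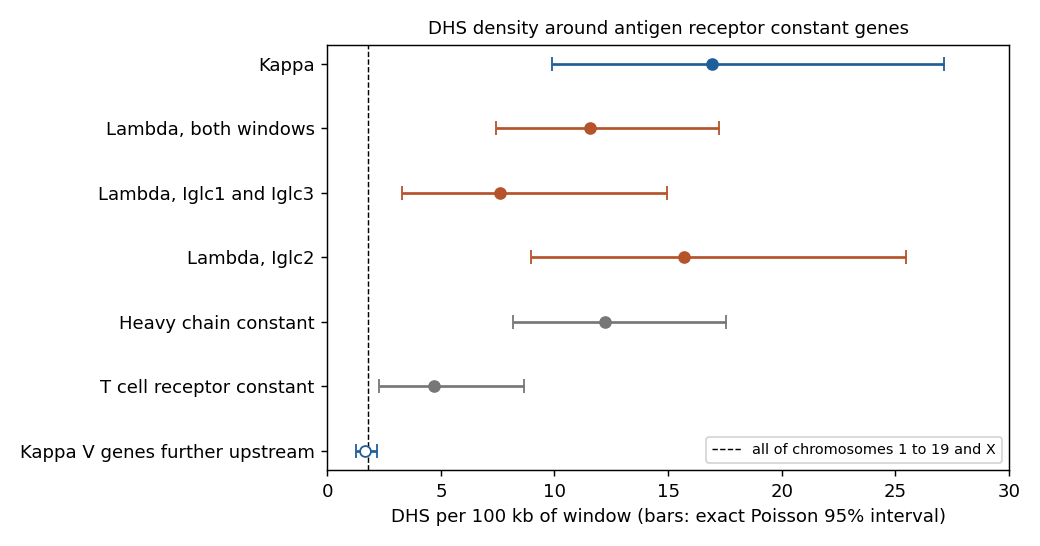
DHS per 100 kb (points) with the exact 95% Poisson interval (bars) in the kappa and lambda windows, at the other antigen receptor constant genes and over the kappa V genes upstream of the window; the dashed line is the value of 1.799 for chromosomes 1 to 19 and X. Kappa at 16.95 and lambda at 11.57 have overlapping intervals, and the T cell receptor genes together are lower, at 4.705.

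The kappa DHS formed a row that began 16.9 kb upstream of Igkc and ended 42.26 kb downstream of it. In the kappa window the highest score, 113.3, belonged to the DHS at chr6:70684994-70686335, 9.074 kb downstream of Igkc and intergenic, which holds the second stretch printed above. A score of 100.3 was found at chr6:70659068-70660321, 16.9 kb upstream of Igkc and 6.122 kb from the start of Igkv3-1, between the V and the J segments. Next came the DHS over the J segments, with 90.51, and one 17.77 kb downstream of Igkc at chr6:70693564-70695163, with 89.95. These 4 and the DHS of Igkc spanned a narrow range of scores, 89.08 to 113.3.

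Further downstream, the DHS at chr6:70718348-70719343 had a score of 84.95 and lay in an intron of Rpia, a gene of the pentose phosphate pathway that follows the kappa locus. A wide DHS of 2874 bp at chr6:70701806-70704679, 26.65 kb downstream of Igkc, had a score of 67.84. The remaining 3 of the 10 highest were at chr6:70663844-70664387 (49.81) and chr6:70662879-70663290 (41.31), both upstream of the J segments, and at chr6:70714812-70715637 (40.79). The other 7 DHS of the window scored 8.76 to 21.8. No kappa DHS was in the top 10% of scores in the list.

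The J segments of kappa, to which the V segments are joined, lay together in the DHS of 2837 bp at chr6:70672409-70675245. All 5 segments, Igkj1 to Igkj5, were inside it. The 40 bases before each J segment are printed here because they hold the recombination signals, with the exact heptamer CACAGTG and nonamer ACAAAAACC, here in their reverse complement, in capitals.
Igkj1: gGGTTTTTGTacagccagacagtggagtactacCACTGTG
Igkj2: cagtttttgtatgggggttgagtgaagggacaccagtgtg
Igkj3: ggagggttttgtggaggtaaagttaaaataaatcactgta
Igkj4: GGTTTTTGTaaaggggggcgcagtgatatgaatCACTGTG
Igkj5: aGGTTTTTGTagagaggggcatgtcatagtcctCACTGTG
Igkj1, Igkj4 and Igkj5 had both exact words, with spacers of 23, 24 and 23 bases. Igkj2 and Igkj3 had neither exact word, which says only that these letters are not in these 40 bases. On the V side of the window no such stretch was called. Igkv3-1, Igkv3-2 and Igkv3-3, the V segments nearest to Igkc, had the same 28 bases after the gene, with an exact heptamer, a spacer of 12 bases and an exact nonamer, and lay in no DHS.
Igkv3-1: CACAGTGctccagggctgaACAAAAACC
The 3 V segments lay in the longest stretch of the window without a DHS, the 32.64 kb from its upstream edge, chr6:70626429-70659067. In that stretch 46.25% of 31-base words occurred more than once in the assembly, against 21.76% in the whole kappa window. Whether reads with several matches were kept is not given in the sources used here, and the part of repeated sequence in this stretch was not tested.

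**Figure D3:**
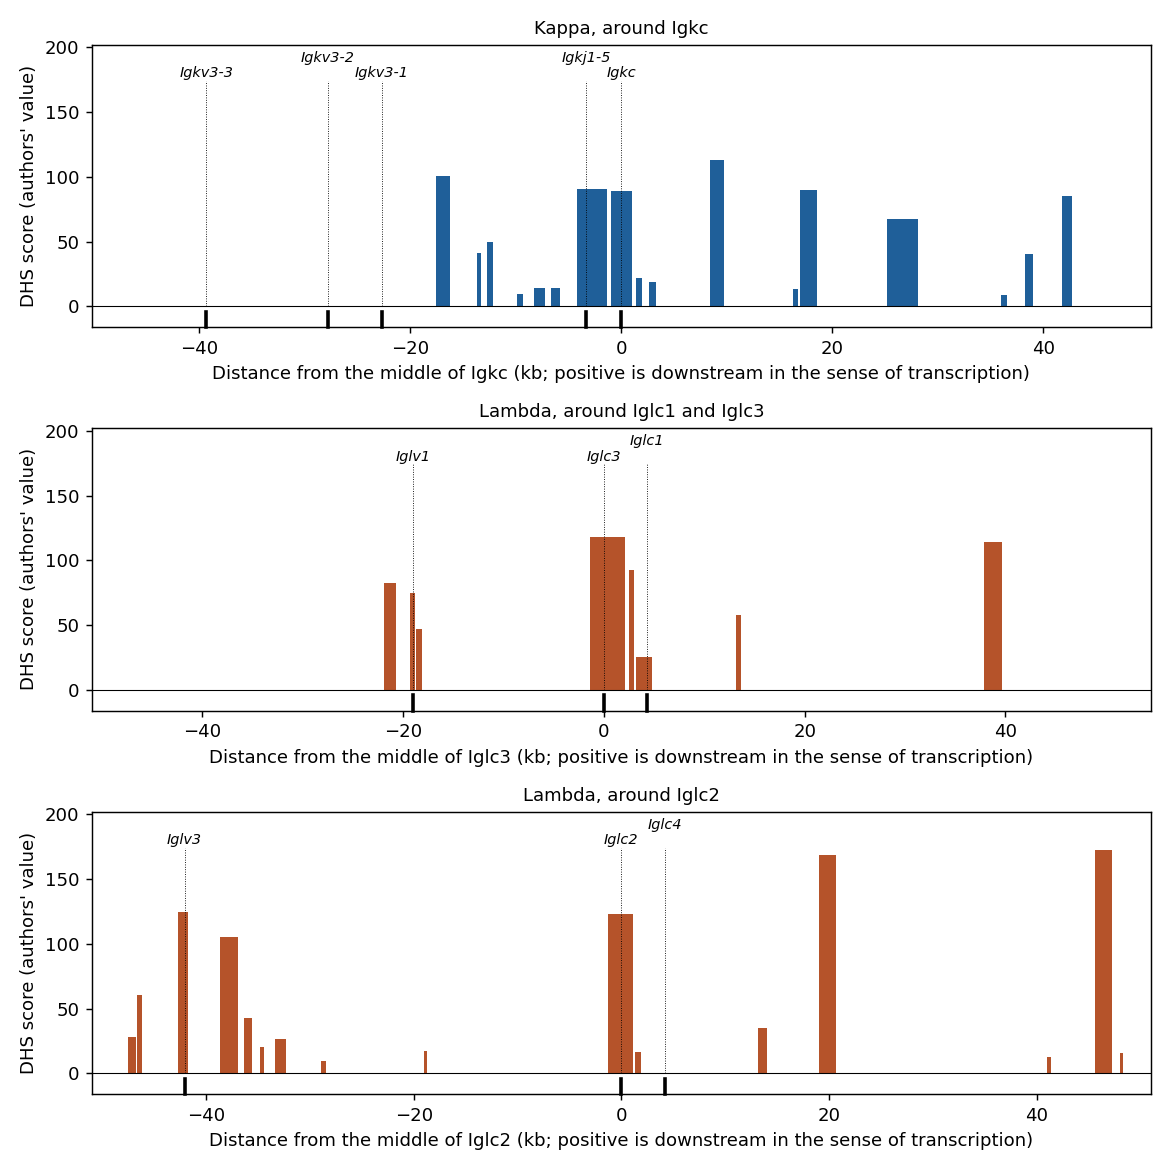
Score of each DHS (height, the authors' value) against its distance from the middle of Igkc, Iglc3 or Iglc2 in kb, positive in the direction of transcription; the width of a bar is the width of the DHS, and ticks and dotted lines mark genes. Kappa DHS run with no gap over 7.9 kb from 16.9 kb upstream to 42.26 kb downstream of Igkc and none lies over the 3 Igkv3 genes, while lambda DHS group at the constant genes, at Iglv1 and Iglv3 and at downstream sites that include the 2 highest scores, 168.9 and 172.6.

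The lambda DHS lay mostly at V genes, at constant genes and downstream of them. Between DHS of the same window the longest gap was 24.15 kb. The highest score of the lambda windows was 172.6 at chr16:19152161-19153821, at percentile 94.95 of the list and 42.24 kb downstream of Iglc4. It was followed by 168.9 at chr16:19178762-19180451, 15.63 kb downstream of Iglc4, which holds the fourth stretch printed above. These were the only 2 of the 41 light chain DHS in the top 10% of scores, and both lay downstream of the pair of Iglc2 and Iglc4. The DHS that holds the third stretch, at chr16:19026613-19028446 and 34.48 kb downstream of Iglc1, had a score of 114.2 and overlapped Gm10088, a predicted gene.

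Each of the 3 annotated V segments of lambda had a DHS over its body, unlike the 3 kappa V segments nearest to Igkc. Over the whole kappa locus 31 of 99 V genes had one (31.31%), against 40.1% of all annotated genes. The exact interval of the lambda share, 29.24 to 100, includes both. Iglv3 had a score of 124.9 (chr16:19241207-19242159), and its DHS was the single one of the 41 with the octamer word ATTTGCAT, an element of immunoglobulin promoters, against 4.7% of all DHS. The word also stood within the 300 bases upstream of Iglv1 and Iglv2, but not inside the DHS over their bodies. Iglv1 had 75.08 (chr16:19085095-19085643). Iglv2 was beyond the window, with 47.57 at chr16:19260514-19261030. Besides these and the members, the 10 highest lambda scores were 105.5 at chr16:19236411-19238163, 92.55 at chr16:19063291-19063816 between Iglc1 and Iglc3, and 82.58 at chr16:19086983-19088221 near Iglv1. The remaining 14 lambda DHS scored from 9.55 to 60.5, the DHS of Iglc1 among them.

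Lambda DHS occurred as copies of each other and kappa DHS did not. Over 100 kb on either side of the members, 12 pairs of DHS aligned over at least 200 bases, all within lambda, 0 within kappa and 0 between the loci. Inside the windows there were 5 such pairs. The DHS of Iglc3 and Iglc2 were 86.1% identical over 1842 bases, with scores of 118.1 and 122.8. The DHS of Iglc1, scored 25.21, aligned with these 2 over 321 bases, at 75.7% and 74.77% identity. Part of the Iglc3 DHS, 563 bases at 79.57%, matched a DHS beside Iglc2 at chr16:19197560-19198128 that scored 16.44, so copies had both near and unlike scores. The downstream DHS with the scores of 114.2 and 168.9 were 85.84% identical over 1674 bases, and only 2.563% and 2.604% of their 31-base words were repeated in the assembly. The DHS over Iglv1 and Iglv2 were 96.69% identical over 514 bases, with scores of 75.08 and 47.57 and with 36.07% and 38.88% of repeated words.

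Repeated sequence was unevenly spread over the 2 loci. In kappa, 1 of 17 DHS (5.882%, exact interval 0.1488 to 28.69) had more than 10% of repeated words, and its share was 14.56%. In lambda, 10 of 24 (41.67%, 22.11 to 63.36) had, with a highest share of 38.26%, against 8.35% of all DHS. Leaving out the DHS above 10% therefore removed more lambda than kappa DHS, by construction, and left 14 and 16. With the window lengths kept, the ratio of kappa to lambda density was then 2.362 (1.08 to 5.226). Limiting the lengths to bases whose word occurs once gave a ratio of kappa to lambda density of 1.26 (0.6355 to 2.446). This setting shortened the lambda length more but kept all 17 and 24 DHS, those above 10% included. How reads shared between the lambda copies were placed, and thereby their part in the lambda scores, was not tested.

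**Figure D4:**
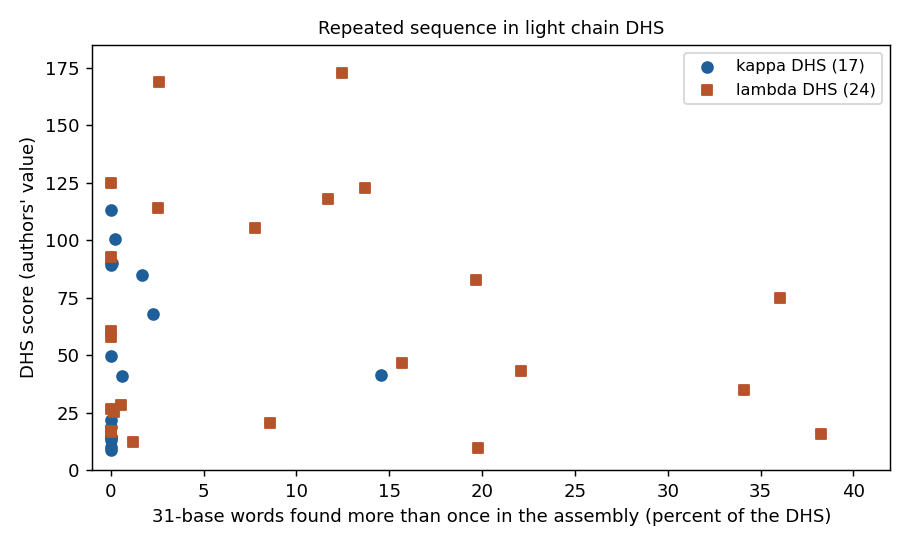
Score of each light chain DHS (vertical, the authors' value) against the percent of its 31-base words found more than once in the assembly (horizontal), for 17 kappa and 24 lambda DHS. All kappa DHS but 1 lie below 10%, and the 10 lambda DHS above 10% range in score from 9.55 to 172.6.

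Sequence words that belong to light chain enhancers were counted on both strands of the 41 DHS. The Ets-IRF composite word occurred in 7 of 17 kappa DHS (41.18%, exact interval 18.44 to 67.08) and in 8 of 24 lambda DHS (33.33%, 15.63 to 55.32), against 24.7% of all DHS. Both intervals include the share of all DHS. In the central 300 bp of each peak the word was in 6 of the 41 (14.63%, 5.566 to 29.17), against 9.323% of all DHS. Of its 15 carriers, 9 were among the 20 DHS with the highest scores of the loci, with the DHS of Igkc, of the highest kappa score and of both downstream lambda copies. The other 6 were among the 21 lower DHS, with scores from 13.31 to 46.83. In the highest kappa DHS it overlapped a PU.1 core word, GAGGAA, by 4 bases.

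The kappa-B word was in the DHS of Igkc alone, at chr6:70675750-70675758, hence in 1 of 17 kappa and 0 of 24 lambda DHS, against 1.15% of all DHS. The exact interval of a share of 0 in 24 DHS reaches 14.25%. The E box word was in 8 kappa and 15 lambda DHS (47.06% and 62.5%), against 50.6% of all DHS, and the PU.1 core word in 11 and 15 (64.71% and 62.5%), against 57.5%. These short words occur in most peaks of this width, and their shares at the light chain loci were near the background. The heptamer was in 4 kappa and 7 lambda DHS, against 21.6% of all DHS, and the nonamer in 1 and 0, against 2.26%, the 1 being the DHS of the J segments with 3 of them. The median GC content was 43.7% in kappa, 42.74% in lambda and 49.33% in all DHS. A stretch from 5 kb before to 2 kb after any annotated start site was counted as a promoter. Such a stretch was overlapped by 5 kappa DHS (29.41%, 10.31 to 55.96) and 9 lambda DHS (37.5%, 18.8 to 59.41). These shares were not distinguishable from the 47.46% of all DHS. The start sites nearest to the 5 kappa DHS were the annotated starts of Igkj1, Igkj5 and Igkc, hence of J segments and of the constant exon. In lambda they included those of Iglc2 and Iglc3. Whether transcription starts at these sites was not tested.

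**Figure D5:**
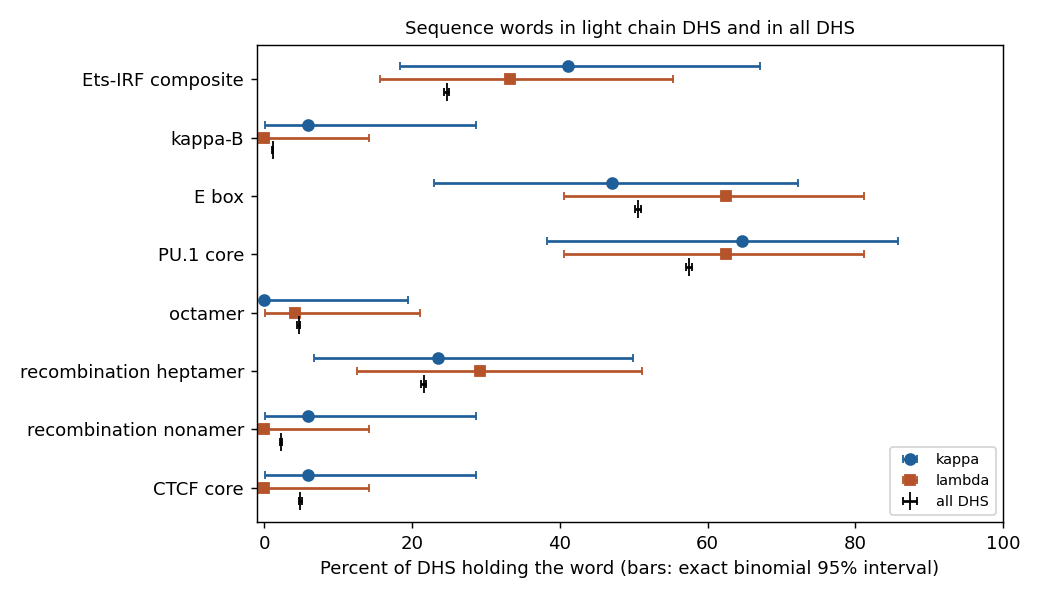
Percent of DHS that hold each sequence word (points) with the exact 95% binomial interval (bars) for 17 kappa, 24 lambda and all 47474 DHS on chromosomes 1 to 19 and X. The intervals of kappa and lambda overlap for every word and include the share of all DHS in each case.

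The core of the CTCF motif, bound by the protein that holds chromatin loops, occurred in 1 of the 41 DHS, against 4.88% of all DHS. This was the DHS in the intron of Rpia, 42.26 kb downstream of Igkc, with the core on the minus strand at chr6:70718947-70718958. Outside the windows, within 100 kb on either side of the members, the core was found in 3 more DHS, which all scored above every DHS of the windows. The DHS at chr6:70754390-70756548, 78.88 kb downstream of Igkc, had a score of 259.5 and 3 cores. In lambda, the DHS at chr16:19002812-19004048 scored 335.1, at percentile 99.39, and the DHS at chr16:19146416-19147623 scored 243.8, each with 1 core. These 2 lambda DHS were copies of each other, 94.21% identical over 1192 bases with 36.54% and 36.09% of repeated words, and lay downstream of Iglc1 and of Iglc4, beyond the edge of each window. The cores are printed with 14 bases on either side, in capitals, the lambda pair at chr16:19003229-19003268 and chr16:19146867-19146906 on the plus strand.
Rpia intron: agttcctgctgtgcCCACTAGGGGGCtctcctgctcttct
Lambda downstream of Iglc1: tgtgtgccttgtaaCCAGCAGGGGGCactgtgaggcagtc
Lambda downstream of Iglc4: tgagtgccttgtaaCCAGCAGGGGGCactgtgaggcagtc
These DHS were chosen for naming after their values were seen. Nearest to the downstream edge of the kappa window was the DHS of the Rpia promoter at chr6:70741020-70743364, with a score of 195.8.

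Promoters were examined at genes that act on the light chain loci or whose products replace or accompany the light chain, a promoter reaching from 5 kb before to 2 kb after a transcription start site. Of these 24 genes, 23 (95.83%, exact interval 78.88 to 99.89) were found with a DHS at a promoter, against 57.2% of protein-coding genes. The list was chosen by name with earlier results of these data known, so this share is a description and no test against the background. All 15 factors on the list of those known to bind or regulate light chain loci had one, with scores from 73.77 at Nfkb1, an NF-kappaB subunit, to 445.7 at Ikzf3, the Ikaros family protein Aiolos, and a median of 149. Sfpi1, which encodes PU.1, had 137.9, and its partners in the composite word, Irf4 and Irf8, had 129.7 and 163. Tcf3, which encodes the E box proteins E12 and E47, had 116.2. Cd79a and Cd79b, the signalling partners of the assembled receptor, had 107.5 and 109.2.

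The genes of recombination and of the pre-B stage had scores from 14.39 to 80.13. Rag1 and Rag2 had promoter DHS with 55.4 and 23.27, and Dntt, the terminal transferase that adds bases at joints, had 31.29. Of the surrogate light chain, which pairs with the heavy chain before a light chain is made, Vpreb1 had 80.13 and Igll1 14.39, and Vpreb2 had no promoter DHS. Vpreb3, listed with these genes but not taken here as a part of the surrogate light chain, had 71.66. Igll1, Rag1 and Dntt had no DHS within 1 kb of the start site, and Igll1, Rag2 and Dntt had no promoter DHS at or above the median score. As a check of the labelled cell type, all 8 B cell markers had a promoter DHS (83.97 to 331.6), as did 1 of 7 T cell markers (Lck, 92.81), 2 of 5 myeloid (Itgam, 18.16, and Cd14, 51.05) and 3 of 3 plasma cell markers. Klf1, a transcription factor of red cell precursors, had a promoter DHS with a score of 177.8. The part of other cells in the light chain DHS was not tested.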

How the data were processed

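The DNaseI library and an input library came from splenic B cells. Per the submitters' processing notes, reads were aligned with BWA (version 0.6.2) to mm9 and handled with SAMtools. The authors deposited the peaks of the DNaseI library with a score per peak, under names of the MACS peak caller. The scale of the score, the version and settings of the caller, its control and the treatment of reads with several matches are not given in the sources used here for this library; caller and aligner settings that the methods state for ChIP-seq were not carried over to it. Peaks were called on 1 library, no read counts are in the list and the depth is unknown, so a stretch without a DHS is one where no peak was called and no more. No processed values of the input library were used here.

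Gene bodies were taken from GENCODE release M1, on the same build, and Iglc1 from a blastn (version 2.17.0) match that lay in no other annotated gene, named by the order of RefSeq on a later build. A DHS was assigned to a window or gene on an overlap of at least 1 bp, and overlapping windows were joined. Densities carry exact Poisson intervals, ratios exact conditional binomial intervals and shares exact Clopper-Pearson intervals, all at 95%, from scipy (version 1.17.1). Repeated sequence is the share of 31-base words found more than once in the assembly on either strand. Words were searched on both strands, and the CTCF core as 1 motif of fixed length. The counting steps were tested on simulated peaks and sequences. No p-value was computed, since there is 1 library and no replicate.

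The members and lists were chosen with earlier results of these data known. Named are the 4 members, the 10 DHS with the highest score in each locus, the genes they overlap, and of each list the genes without a promoter DHS where fewer than 6 lack one, or those with one where fewer than 6 have one; other names were chosen after their values were seen. One further marker list is not reported here. Alternatives were flanks of 25 and 100 kb, peaks at or above the median score, peaks closer than 500 bp merged, the peak centre, covered bases, bases with a unique word, a body widened by 1 kb, distal peaks as reference, the central 300 bp and 1 kb around the start site.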

Additional observations from a re-analysis of the deposited data

How the results depend on the processing

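The kappa window held 10 DHS and the lambda windows 15 at the median score or above, and lambda held 12 with a flank of 25 kb. The settings that leave out DHS with over 10% of repeated words (14 lambda DHS), leave out Iglc1 or take the lambda windows singly, and the median score for the other receptors (7 heavy chain DHS) and Trac alone (9 DHS), were chosen after the data were seen. The ratio of kappa to lambda density ran from 1.08 against the Iglc2 window alone to 2.362 without the DHS with over 10% of repeated words, and stayed above 1 in all settings run; its interval excluded 1 only in the latter, which removes mostly lambda DHS by construction and keeps the window lengths (covered bases, with 1.594, have no interval). Against distal DHS alone the highest scores moved to percentile 96.14 in kappa and 98.54 in lambda, as distal scores are lower. The composite word was in 6 DHS within the central 300 bp, by construction fewer than the 15 in whole peaks. The other 26 of 34 alternative values stayed within 1.5 times or inside the interval. No paired analysis was possible because there is 1 DNaseI library. Closed chromatin and too few reads cannot be told apart where no DHS was called.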

Other observations

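The kappa V genes further upstream had about as many DHS per length as the genome at large. Over the 3121 kb from the first annotated kappa V gene to the edge of the window (chr6:67505630-70626428) there were 52 DHS, or 1.666 per 100 kb (exact Poisson interval 1.244 to 2.185), an interval that includes the 1.799 of chromosomes 1 to 19 and X. A DHS lay over the body of 31 of 99 kappa V genes (31.31%, 22.36 to 41.41) and of 3 of 3 lambda V genes (29.24 to 100), against 40.1% of all annotated genes, which both intervals include. The kappa V genes with a DHS had scores from 9.82 to 160.1 with a median of 35.47.

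Kappa V genes with and without a DHS differed in values that were looked at after the counts were known. The octamer word stood within the 300 bases upstream of 24 of the 31 genes with a DHS (77.42%) and of 39 of the 68 without one (57.35%). The median share of repeated 31-base words was 31.44% in the former and 46.94% in the latter. The part of either in the calls was not tested. V genes of 1 cluster share sequence and are not independent of each other.

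The PU.1 core word was near the background in whole peaks. Within the central 300 bp it was in 9 of 17 kappa DHS (52.94%, exact interval 27.81 to 77.02) and in 4 of 24 lambda DHS (16.67%, 4.735 to 37.38), against 29.45% of all DHS. The intervals overlap, and this value was looked at after the counts were known.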
